A study of Mus musculus with 9 samples.

Results

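The 7 genes described here encode Mas-related G protein-coupled receptors (Mrgpr), a family best known from itch and pain sensing neurons. They are Mrgprd, Mrgpra3, Mrgprx1, Mrgprb4, Mrgprb5, Mrgpre and Mrgprf, taken by symbol from the 22609 genes of the deposited count files. Mrgprb2, the receptor of mast cells, was left out of the set. All 7 symbols were found, and all 7 had enough reads to be tested. The files hold 14 other Mrgpr and Mas genes, described at the end.

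The libraries came from male C57 mice aged 8 to 12 weeks. Every mouse had received PTX (paclitaxel, a chemotherapy drug) by 2 intraperitoneal injections of 2 mg/kg given a day apart. Every mouse had also received an LTβR antagonist, which blocks the lymphotoxin-beta receptor, at 15 μg per site into the hind paw and by intrathecal injection. Tissue was taken 6 days after the last PTX dose, as DRG (dorsal root ganglia, L3 to L5), lumbar spinal cord and hind paw punch biopsies, with 3 samples each. The sample titles put the antagonist on days 1 and 4, whereas the series text puts it between the PTX doses and on the day after them. IgG-injected controls are not analysed here, so each comparison is between tissues of mice given both agents, and no effect of either agent was tested. No label states that a tissue's 3 samples are from different mice, so p-values cover only the spread among these samples, which may be technical.

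Sensory neurons of the body have their cell bodies in the dorsal root ganglia, and their axons run to the skin and into the dorsal spinal cord. Several Mrgpr genes are each used by a subset of these neurons, mostly small unmyelinated ones of the non-peptidergic kind. The receptors mostly signal through the Gq family of G proteins and phospholipase C, and several open the channels TRPA1 or TRPV1 downstream. Mrgprd is the β-alanine receptor and marks the most abundant non-peptidergic class in skin. Mrgpra3 is the chloroquine receptor and Mrgprx1, also known as Mrgprc11, responds to peptides cut from proenkephalin. Mrgprb4 marks unmyelinated fibres that respond to stroking, and Mrgprb5 is used by part of the same small population. Mrgpre and Mrgprf are orphan receptors.

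Several members share stretches with another family gene or pseudogene, mostly outside the set, from which some short reads may not tell them apart. The sequences below give examples. Mrgprb4 and Mrgprb5 were 84.5% identical over their aligned coding sequence. The stretch in which they are most alike, of 120 bases in their only exon, has 4 differences, set in capitals. It covers coding bases 780 to 899 of Mrgprb4 and 783 to 902 of Mrgprb5 (chromosome 7, GENCODE M21 transcripts on GRCm38).
Mrgprb4: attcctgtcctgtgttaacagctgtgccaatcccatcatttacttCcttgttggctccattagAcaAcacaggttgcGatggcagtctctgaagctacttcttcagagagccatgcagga
Mrgprb5: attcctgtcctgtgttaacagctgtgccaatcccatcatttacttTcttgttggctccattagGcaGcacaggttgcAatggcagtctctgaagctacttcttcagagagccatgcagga

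Mrgpra3 was 88.6% identical to Mrgpra4, a gene outside the set. Their longest shared coding run, 76 bases in capitals below, is longer than the 50-base reads of the study. It is shown from coding base 206 to 301 of Mrgpra3 and from 149 to 244 of Mrgpra4.
Mrgpra3: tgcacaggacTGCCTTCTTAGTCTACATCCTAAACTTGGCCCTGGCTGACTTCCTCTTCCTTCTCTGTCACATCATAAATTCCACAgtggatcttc
Mrgpra4: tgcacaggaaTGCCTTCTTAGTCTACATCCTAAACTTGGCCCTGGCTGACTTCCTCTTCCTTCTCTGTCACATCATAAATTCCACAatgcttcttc

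Reads that aligned to several places were not counted to genes, so reads of a shared stretch can be missing from a count. Windows of 50 bases were therefore taken along the longest GENCODE M21 transcript of each gene and looked for in all 141767 transcripts of the annotation. In Mrgprd and Mrgprf 0% of the windows occurred in another gene's transcript, and 0% lay within 2 mismatches of another family gene. For Mrgpre the shares were 0.808% and 0%. Mrgpra3 had 7.14% of its windows in another gene and 38.4% within 2 mismatches of a family gene. For Mrgprx1 the shares were 5.84% and 25.1%, the partners of exact windows being Mrgprc1-ps, Mrgprc2-ps, Mrgprc4-ps, Gm18348 and Gm9322. For Mrgprb4 they were 1.45% and 19.7%, and for Mrgprb5 0.81% and 14.9%. The levels of these last 4 genes are thus less certain than those of Mrgprd, Mrgpre and Mrgprf. Mrgpra3 and Mrgprx1 were 67.0% identical in coding sequence. Of the 7 genes, Mrgpre alone overlapped another annotated gene, Gm22064 on the opposite strand, and the strand setting of the counting is not given.

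**Figure D1:**
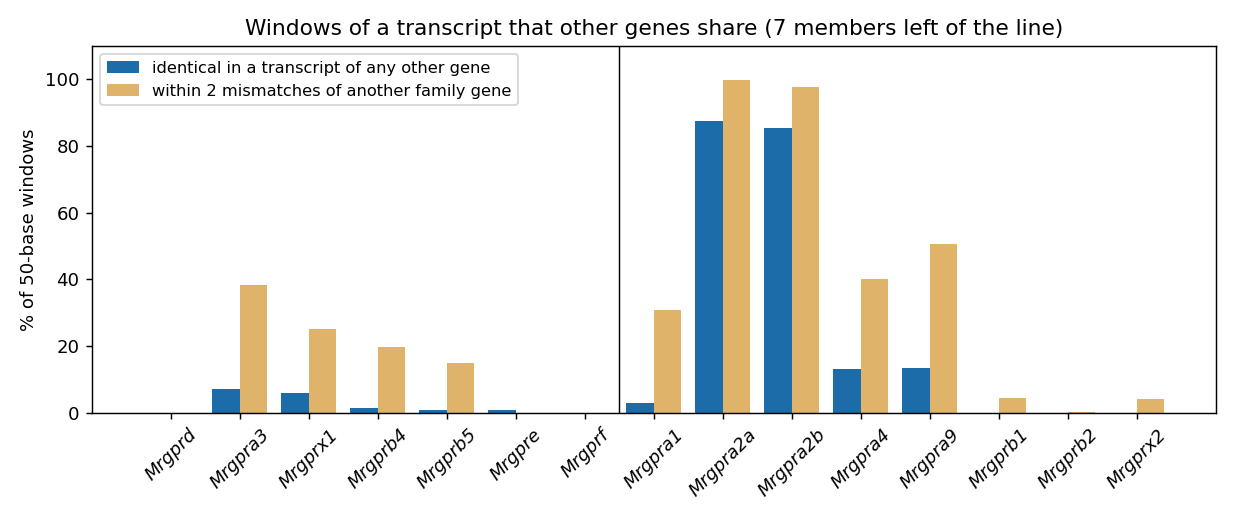
Bars give the percent of 50-base windows of a transcript (vertical axis) that are identical in a transcript of any other gene (blue) or lie within 2 mismatches of another Mrgpr or Mas gene (tan), for the 7 members left of the line and 8 other family genes right of it. Mrgprd and Mrgprf have no shared window, and Mrgpra2a and Mrgpra2b share most of theirs.

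All 7 genes lie on chromosome 7. Mrgpra3, Mrgprx1, Mrgprb5 and Mrgprb4 stand in this order in a cluster of family genes and pseudogenes, all 4 on the minus strand. Mrgpre follows beyond that cluster, beside Mrgprg. Mrgprf and Mrgprd are next to each other on the plus strand, with no family gene between them. RefSeq's promoter windows held 5 of the 7 members. The 250 bases before the annotated start are shown for Mrgprd, Mrgprx1 and Mrgpre, the members with the most reads in DRG, of which Mrgprd and Mrgprx1 were seen almost only there and Mrgpre in spinal cord too. Capitals mark E-box letters (CANNTG, which reads the same on both strands). The build is GRCm38.p6, and the positions are chr7:145314585-145314834 on the plus strand for Mrgprd, chr7:48027598-48027847 on the minus strand for Mrgprx1 and chr7:143784501-143784750 on the minus strand for Mrgpre.
Mrgprd: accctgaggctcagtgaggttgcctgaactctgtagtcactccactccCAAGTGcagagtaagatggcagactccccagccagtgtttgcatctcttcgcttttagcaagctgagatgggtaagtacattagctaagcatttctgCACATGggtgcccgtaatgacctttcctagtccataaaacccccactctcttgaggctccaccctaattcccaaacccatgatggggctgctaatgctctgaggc
Mrgprx1: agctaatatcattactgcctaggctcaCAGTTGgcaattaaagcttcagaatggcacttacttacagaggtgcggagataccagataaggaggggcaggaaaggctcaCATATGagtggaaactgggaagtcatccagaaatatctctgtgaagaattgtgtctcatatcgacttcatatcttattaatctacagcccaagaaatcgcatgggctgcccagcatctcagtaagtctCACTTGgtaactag
Mrgpre: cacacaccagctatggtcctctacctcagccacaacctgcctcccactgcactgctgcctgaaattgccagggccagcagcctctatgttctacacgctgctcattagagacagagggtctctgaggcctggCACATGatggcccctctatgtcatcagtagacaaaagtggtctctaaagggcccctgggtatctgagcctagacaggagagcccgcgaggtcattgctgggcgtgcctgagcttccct

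These windows held 2, 3 and 1 E-box matches, and 66.2% of the 32851 promoter windows of the RefSeq table held at least 1. The letters TGTGGT, bound by Runx factors, were searched on both strands because Runx1 is known to direct the Mrgpr neuron class. They were in 0 of the 5 member windows and in 14.0% of all windows. TATAAA was in 1 of the 5, that of Mrgprb4, and in 12.4% of all windows. None of these matches overlapped another motif searched. They describe the letters of the windows only.

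The tissues carried their own markers. The summed level of 11 pan-sensory neuron genes ranged from 4798 to 5740 CPM in the DRG libraries, from 92.3 to 106 CPM in the cord libraries and from 8.08 to 10.7 CPM in the paw libraries, where CPM is the read count scaled to library size. Keratinocyte genes summed to 34565 to 51999 CPM in paw, and central glia genes to 4143 to 4812 CPM in spinal cord. Each library had 15537545 to 23229724 reads in genes. A floor of 3 reads was worth 0.134 to 0.185 CPM. Some libraries stood apart from the others of their tissue. Skeletal muscle genes summed to 606 and 943 CPM in DRG samples 1 and 2 against 31.6 CPM in DRG sample 3. Marrow and erythroid genes summed to 745 CPM in spinal cord sample 1 against 196 and 232 CPM in samples 2 and 3. Schwann cell and satellite glia genes summed to 13315 CPM in spinal cord sample 3 against 9125 and 9243 CPM, and fibroblast genes there to 1158 CPM against 485 and 385 CPM.

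Mrgprd had the most reads of the set. It had 3893, 2179 and 4191 reads in DRG samples 1, 2 and 3, or 174, 105 and 208 CPM. In spinal cord it had 2, 0 and 5 reads, and in paw 2, 2 and 3 reads. DRG sample 2 was the low one in its tissue, and every DRG library was far above every library of the other tissues. The mean was 162 ± 52.2 CPM in DRG (SD, n = 3), and the log2 difference from spinal cord was 10.33 ± 0.47 (SE). The adjusted p was 5.86e-08 by edgeR's quasi-likelihood test with Benjamini-Hochberg adjustment, which is the test meant wherever an adjusted p is given. Without spinal cord sample 3, which held 5 of the 7 cord reads, the log2 difference was 11.54, and without sample 2 it was 9.70. The level in paw lay below DRG by a log2 difference of -10.11 ± 0.47 (adjusted p = 1.75e-08). In these bulk samples fewer cells of a type and less RNA per cell cannot be told apart.

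The chloroquine receptor gene Mrgpra3 was detected in DRG libraries only. It stood at 8.94, 11.1 and 11.1 CPM there, from 200, 231 and 224 reads, and at 0 reads in all 6 libraries of spinal cord and paw. Its 3 DRG values were close together, with a mean of 10.4 ± 1.26 CPM. Set against a floor of 3 reads over the 3 libraries of a tissue, Mrgpra3 was at least 203-fold higher in DRG than in spinal cord (adjusted p = 1.13e-06) and at least 172-fold higher than in paw (adjusted p = 4.65e-07).

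Mrgprx1, the peptide-responsive itch receptor gene, stood at 13.8, 17.2 and 19.2 CPM in DRG, from 309, 357 and 387 reads. Spinal cord had 0, 3 and 2 reads and paw 1, 1 and 0. Every DRG library lay above all others, and the mean in DRG was 16.7 ± 2.71 CPM. The log2 difference of DRG from spinal cord was 7.51 ± 0.39 (adjusted p = 2.32e-08). Without spinal cord sample 2, which held 3 of the 5 cord reads, it was 8.11. Against the 2 paw reads the ratio of DRG to paw was 415, with a 95% counting interval of 115 to 3431 (adjusted p = 6.03e-09).

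Mrgprb4 and Mrgprb5, the closely related pair printed above, were the members with the fewest DRG reads. Mrgprb4 had 72, 51 and 88 reads in DRG, or 3.22, 2.46 and 4.36 CPM, and 0 reads elsewhere. Mrgprb5 had 70, 81 and 65 reads, or 3.13, 3.91 and 3.22 CPM, with 2 reads in spinal cord sample 2 and 0 in every other library outside DRG. The order of the DRG samples differed between the pair, since sample 2 was lowest for Mrgprb4 and highest for Mrgprb5. The means, 3.35 ± 0.954 and 3.42 ± 0.427 CPM, differed by less than the spread between samples. Mrgprb4 was at least 65.4-fold higher in DRG than in spinal cord (adjusted p = 3.16e-05) and at least 55.4-fold higher than in paw (adjusted p = 1.74e-05). For Mrgprb5 the ratio of DRG to spinal cord was 100.4 with a counting interval of 27.5 to 834 (adjusted p = 8.19e-06). Both cord reads were in sample 2, and without that library the fitted log2 difference went from 6.40 to 8.997, a value set by the prior count since 0 cord reads were left. It was at least 56.8-fold higher in DRG than in paw (adjusted p = 2.78e-06).

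The orphan receptor gene Mrgpre was the member shared by both nervous tissues. It stood at 39.0, 43.2 and 38.8 CPM in DRG and at 22.1, 21.7 and 19.2 CPM in spinal cord, from 442, 465 and 334 cord reads. Paw libraries had 22, 26 and 46 reads, or 1.32, 1.60 and 2.71 CPM, with sample 3 the highest. The 3 tissues did not overlap. The means were 40.3 ± 2.46 CPM for DRG, 21.0 ± 1.59 CPM for spinal cord and 1.88 ± 0.735 CPM for paw. DRG lay above spinal cord by 0.94 ± 0.15 in log2, a 1.92-fold difference (adjusted p = 0.000282). Paw lay below DRG by a log2 difference of -4.42 ± 0.20 (adjusted p = 1.54e-09) and below spinal cord by one of -3.48 ± 0.20 (adjusted p = 1.16e-08). The DRG excess of Mrgpre over spinal cord was thus far smaller in size than that of the 5 members before it, although the difference between members was not tested.

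The other orphan receptor gene, Mrgprf, had its highest levels in paw. Paw samples stood at 11.1, 15.6 and 17.3 CPM, from 186, 252 and 293 reads. DRG samples stood at 11.1, 8.16 and 9.16 CPM, and spinal cord samples at 1.80, 1.59 and 3.44 CPM. The highest DRG value, in sample 1, all but touched the lowest paw value, also in sample 1. The means were 14.6 ± 3.16 CPM for paw, 9.48 ± 1.51 CPM for DRG and 2.28 ± 1.02 CPM for spinal cord. Paw lay above DRG by 0.63 ± 0.25 in log2 (adjusted p = 0.0352). Leaving out DRG sample 2 or 3, or paw sample 2 or 3, ended this call, with log2 differences of 0.49 to 0.60 and adjusted p from 0.0856 to 0.132, and over all alternatives the adjusted p ran from 0.00707 to 0.144. Upper quartile scaling in place of TMM moved the median of all genes by 0.12 in this comparison, and Mrgprf with it to 0.75, still called. With DRG samples 1 and 2 both left out, the difference was 0.67 and was not called either. Against spinal cord, Mrgprf was higher by 2.08 ± 0.28 in DRG (adjusted p = 6.97e-05) and by 2.70 ± 0.28 in paw (adjusted p = 3.12e-06).

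**Figure D2:**
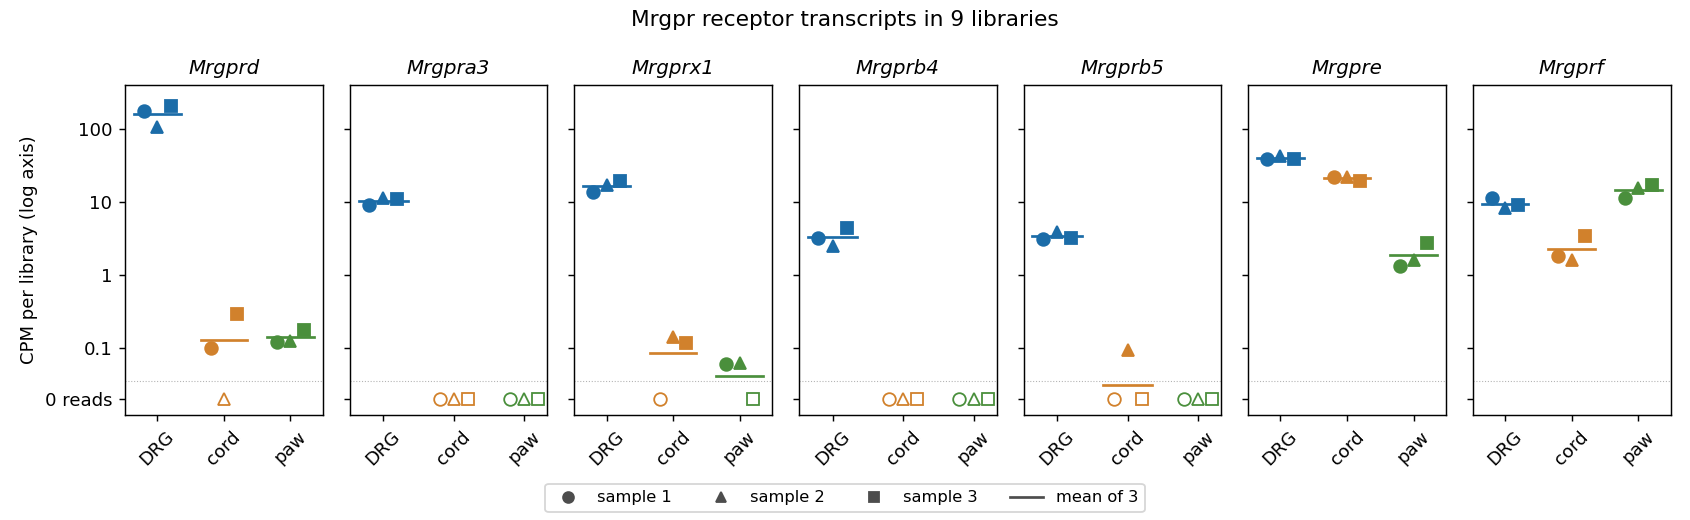
Points give the level of each member in each of the 9 libraries in CPM (vertical log axis, with libraries at 0 reads as open symbols below the dotted line), by tissue, and lines give the mean of 3. Mrgprd, Mrgpra3, Mrgprx1, Mrgprb4 and Mrgprb5 are at or near 0 outside DRG, Mrgpre is in DRG and spinal cord, and Mrgprf is highest in paw.

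The summed levels of smooth muscle and fibroblast markers were, like Mrgprf, highest in paw, and their part in its levels was not tested. The 8 smooth muscle genes summed to 2167 to 2395 CPM in paw, to 390 to 531 CPM in DRG and to 175 to 262 CPM in the cord, and none was at 0 in any tissue. Of these 8, 7 were higher in paw than in DRG and 1, Smtn, was lower. The 6 fibroblast genes summed to 4614 to 5918 CPM in paw and 2228 to 3310 CPM in DRG, and 2 of the 6 were called higher in paw than in DRG and 4 were not called, where 39.7% of all genes tested were higher in paw. Spinal cord sample 3, the cord library with the most fibroblast reads, was also the one with the most Mrgprf reads, 60 against 36 and 34. Within paw the highest fibroblast sum, 5918 CPM, was in sample 2, and the highest Mrgprf level was in sample 3. Smooth muscle sums in paw samples 1, 2 and 3 were 2167, 2300 and 2395 CPM, rising in the order of Mrgprf. They were 531, 390 and 391 CPM in the DRG samples, again in its order. In the cord samples they were 175, 239 and 262 CPM, and there only the highest, sample 3, was shared with Mrgprf. Smtn, the gene lower in paw than in DRG, made up 365, 236 and 271 CPM of the DRG sums. Of the cord sums it made up 49.7, 56.7 and 137 CPM. Without Smtn the DRG order and the highest cord sample would not match those of Mrgprf, and the DRG and cord sums would overlap. Some sensory neuron genes also had their most cord reads in cord sample 3, although the summed pan-sensory level did not stand out there, at 93.8, 106 and 92.3 CPM in cord samples 1, 2 and 3. Scn10a, a sodium channel gene of pain sensing neurons, had 11, 17 and 44 reads in these libraries, and Avil, a pan-sensory neuron gene, had 18, 22 and 42. Mrgprd also had its most cord reads there, and the part of sensory neuron RNA in those reads was not tested.

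Read against all genes, calls as such were common. Between DRG and spinal cord the test called 59.6% of the 16091 genes, with 29% of the genes higher in DRG and 30.6% lower. All 7 members were called higher in DRG. Between paw and DRG 80.5% of genes were called, 39.7% higher in paw and 40.8% lower, and 6 members were lower in paw and 1 higher. Between paw and spinal cord 81.6% were called, 39.9% higher in paw and 41.7% lower. There Mrgprf was higher, Mrgpre was lower and the other 5 members were not called. Of those 5, Mrgprd had 7 reads over the 3 libraries of each tissue (adjusted p = 0.872), and the others had 0 to 5 reads per tissue, so that a difference was not detectable at this depth. The 5 members seen almost only in DRG passed the read filter through their DRG libraries, so their calls against DRG follow from that filter and are not support for a pattern. The 3 comparisons share libraries and are not independent of each other.

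**Figure D3:**
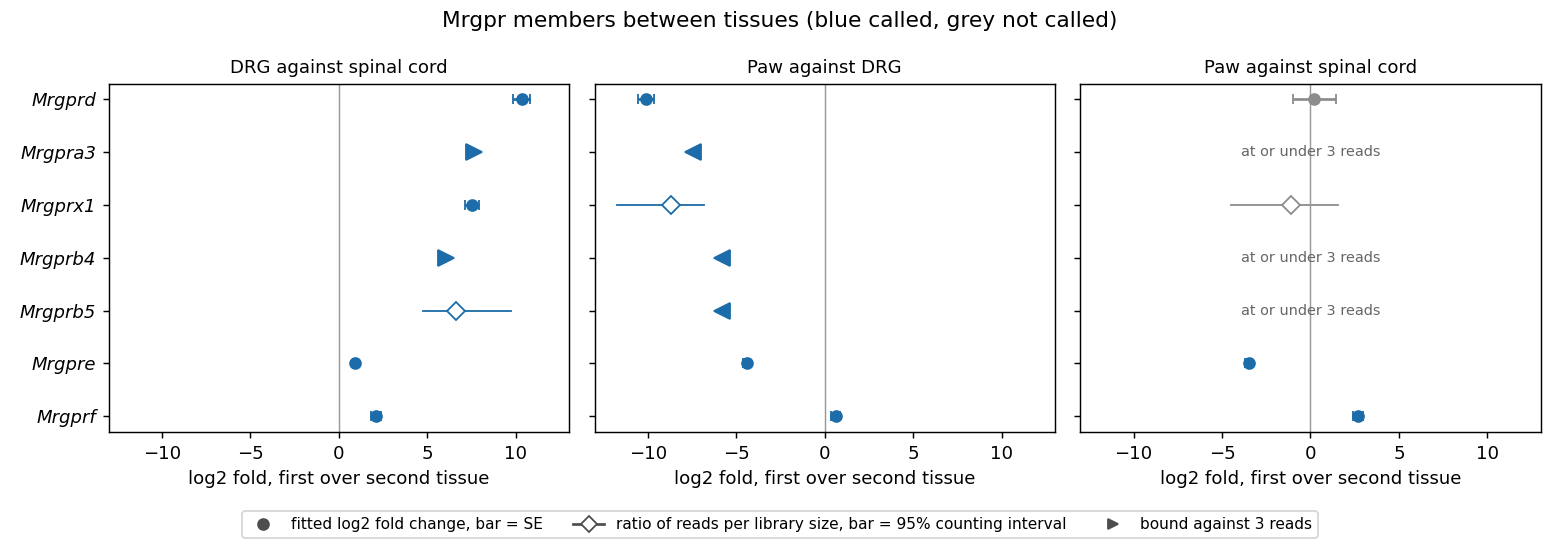
Each panel gives the log2 fold of the first tissue over the second for the 7 members (filled circles with SE bars for fitted values, diamonds with 95% counting intervals for ratios against 1 to 3 reads, triangles for bounds against 3 reads), blue where the edgeR test called the gene. The members detected mainly in DRG sit far from 0 in the panels that involve DRG, while Mrgpre and Mrgprf sit closer to 0.

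Of the reads of the 7 members, Mrgprd took 64.8 ± 8.57% in DRG, Mrgpre 89.2 ± 5.13% in spinal cord and Mrgprf 87.8 ± 2.02% in paw (SD, n = 3). These are shares of reads, which longer transcripts raise, and no test was run on them. They leave out the other family genes, which summed to 9.13 ± 0.609 CPM in paw against 16.7 ± 3.80 CPM for the members. Per kilobase of the GENCODE M21 transcript, DRG levels ran from Mrgprd at 51.6 ± 16.6 CPM per kilobase through Mrgprx1 at 14.2 ± 2.30, Mrgpre at 10.7 ± 0.655, Mrgpra3 at 8.03 ± 0.974 and Mrgprf at 4.54 ± 0.724. Mrgprb5 at 3.30 ± 0.412 and Mrgprb4 at 2.74 ± 0.783 came last, and the values of these 2 genes overlapped. The other neighbours in this order did not overlap between samples. With coding length in place of transcript length Mrgpre, at 43.3 ± 2.65 CPM per coding kilobase, stood above Mrgprx1, at 17.3 ± 2.81. The order of Mrgpre and Mrgprx1 thus depends on which length is used, and neither length comes from the gene models with which the reads were counted.

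Within DRG the members did not share a lowest sample. Mrgprd, Mrgprb4 and Mrgprf were lowest in DRG sample 2 by CPM, Mrgpra3, Mrgprx1 and Mrgprb5 in sample 1, and Mrgpre in sample 3. Of the 11 pan-sensory neuron genes, 9 were lowest in sample 1, as were 12 of the 14 non-peptidergic neuron genes. The 2 pan-sensory genes lowest in sample 2 were the sodium channel genes Scn10a, at 1045, 789 and 1303 CPM, and Scn11a, at 501, 482 and 658 CPM. Other genes low in sample 2 were Il31ra, which encodes the interleukin-31 receptor of itch neurons and stood at 24.6, 14.8 and 28.8 CPM, and Cysltr2, a leukotriene receptor gene, at 4.25, 2.56 and 4.80 CPM. Trpm8, the cold channel gene, stood at 31.1, 8.78 and 43.0 CPM. These genes were singled out after their values were seen, and 3 samples of one group allow no test. The lists they come from did not share this low. Of the 15 other itch receptor genes tested, which include Il31ra and Cysltr2, 5 were lowest and 7 highest in sample 2. Of the 9 peptidergic and myelinated neuron genes, which include Trpm8, 3 were lowest and 6 highest there. DRG sample 2 also had the highest skeletal muscle sum, 943 CPM, and the highest marrow sum, 386 CPM against 175 and 148. The part of either in the low values of sample 2 was not tested.

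Set against the geometric mean of the 11 pan-sensory genes, the members differed in how steady they were over the 3 DRG samples. The SD of the log2 ratio was 0.03 for Mrgpra3, 0.12 for Mrgprx1, 0.13 for both Mrgprb5 and Mrgpre, 0.37 for Mrgprf, 0.45 for Mrgprb4 and 0.58 for Mrgprd. The reference decided this order. With Scn10a alone as the reference, the SD was 0.06 for Mrgprb4 and 0.17 for Mrgprd, but 0.42 for Mrgpra3, 0.38 for Mrgprx1, 0.52 for Mrgprb5, 0.44 for Mrgpre and 0.33 for Mrgprf. Mrgprd and Mrgprb4 thus varied less against Scn10a than against the list, and Mrgpra3, Mrgprx1, Mrgprb5 and Mrgpre varied less against the list. Each SD rests on 3 values and holds counting error, with 200 to 231 reads for Mrgpra3 and 51 to 88 for Mrgprb4. Differences between these SDs were not tested and are not shown to be traits of the genes.

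**Figure D4:**
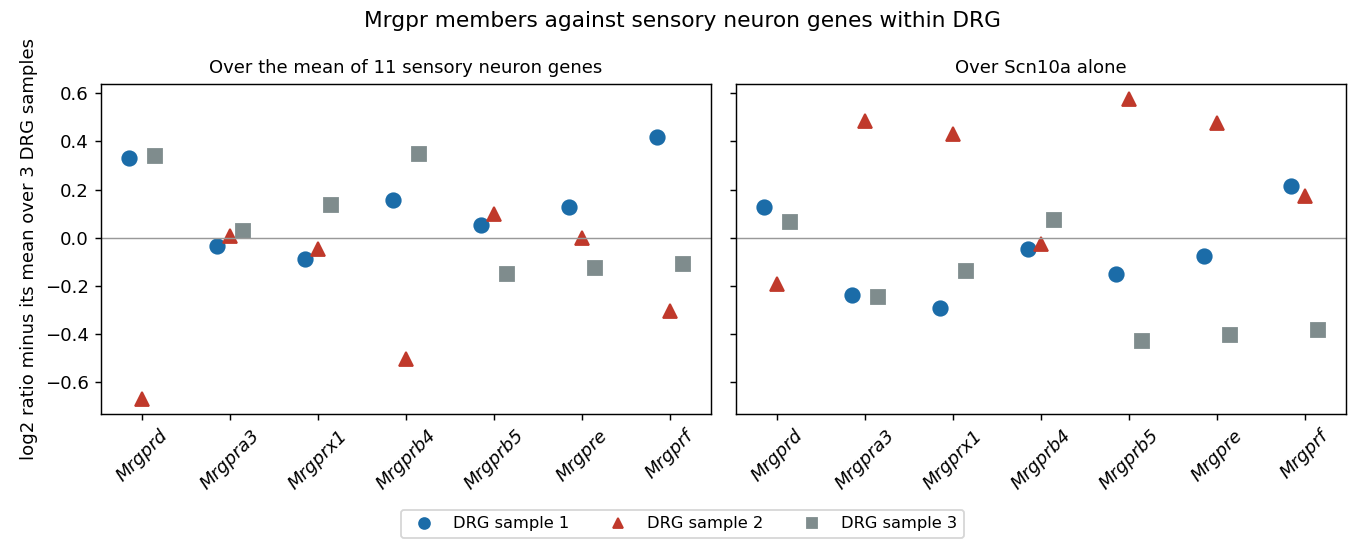
Points give the log2 ratio of each member to a sensory reference in the 3 DRG samples, minus the mean over the 3 (vertical axis), with the mean of 11 pan-sensory genes as reference on the left and Scn10a alone on the right. DRG sample 2 (triangles) is lowest for Mrgprd and Mrgprb4 on the left and highest for Mrgpra3, Mrgprx1, Mrgprb5 and Mrgpre on the right.

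Likeness of pattern was measured as the root-mean-square difference of log2 CPM over the 9 libraries, each gene centred on its own mean and a prior count of 2 added, so 0 would be the same pattern. Mrgprd was nearest to Avil (0.47), Pirt (0.53) and Prdm12 (0.60). Mrgpra3 was nearest to P2rx3, the ATP-gated channel gene of non-peptidergic neurons (0.16), then A3galt2 (0.21) and the potassium channel gene Kcnk18 (0.28). Mrgprx1 was nearest to Kcnk18 (0.38), and Mrgpra3 came second (0.39). Mrgprb4 and Mrgprb5 lay 0.38 from each other, behind Gm20139 (0.18) for Mrgprb4 and Smr2 (0.07) for Mrgprb5. Mrgpre was nearest to Cntnap2 (0.17, of the neurexin family), Dusp26 (0.17) and Ehd3 (0.19). Mrgprf was nearest to the small heat shock protein gene Hspb2 (0.16), Tspan11 (0.17) and the collagen VI chain gene Col6a2 (0.21). The prior count sets the value of a library with 0 reads and compresses genes with few reads. The contrasts of Mrgprd, Mrgpra3, Mrgprx1, Mrgprb4 and Mrgprb5 between DRG and the other tissues are thus limited by it, and so are their distances. P2rx3, for example, had 3.97 ± 0.455 CPM in spinal cord, where Mrgpra3 had 0 reads.

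Genes for the signalling steps below the receptors were mostly higher in DRG. Of 10 such genes, all tested, 7 were higher in DRG than in spinal cord and 0 lower, against 29% and 30.6% of all genes tested. Their median log2 difference was 2.85 against -0.02 over all genes tested. Plcb3, the phospholipase C gene of these neurons, had a mean of 624 ± 57.9 CPM in DRG against 37.8 ± 5.52 CPM in the cord, higher by 4.05 ± 0.13 in log2. Gnaq, the Gq subunit gene, was higher by 1.56 ± 0.14. Between paw and DRG 9 of the 10 were lower in paw, and only Ano1, a calcium-activated chloride channel gene, was higher, by 2.42 ± 0.14. Of all genes tested, 40.8% were lower in paw and 39.7% higher. Trpa1 had 833, 878 and 968 reads in DRG and 0 in each paw library. The lists named in these paragraphs were chosen with earlier results of these data known.

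Receptors for other itch signals were called in both directions. Of 16 such genes 15 were tested, and 8 were higher and 4 lower in DRG than in spinal cord, with a median log2 difference of 0.46. Of all genes tested, 29% were higher in DRG and 30.6% lower. Il4ra, an interleukin-4 receptor chain gene, averaged 56.0 ± 5.64 CPM in DRG, 13.1 ± 1.01 CPM in cord and 48.3 ± 7.43 CPM in paw, where its difference from DRG was not called (adjusted p = 0.135). Il13ra1, whose product pairs with that chain, was at 165 ± 23.0 CPM in paw and 11.9 ± 1.07 CPM in DRG. In paw 4 of the 15 were higher than in DRG and 9 lower, against 39.7% and 40.8% of all genes tested. The median was -0.96 against -0.02 over all genes tested.

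Among 9 genes for itch peptides and ligand precursors 2 were higher and 6 lower in DRG than in spinal cord. The shares over all genes tested were 29% and 30.6%. The median log2 difference of the 9 was -1.11. Nmb, which encodes neuromedin B, was higher in DRG by 4.71 ± 0.15. Nppb, the gene of a natriuretic peptide used by itch neurons, had 134, 143 and 126 reads in DRG and 1, 0 and 0 in spinal cord. Penk, the source of the peptides that act on the Mrgprx1 receptor, averaged 206 ± 23.6 CPM in spinal cord, 14.2 ± 1.83 CPM in DRG and 17.5 ± 1.60 CPM in paw. Its log2 difference of DRG from spinal cord was -3.86 ± 0.13 (adjusted p = 1.17e-09), opposite in sign to that of Mrgprx1. All 14 non-peptidergic neuron genes were higher in DRG than in spinal cord, with a median of 4.54. All 14 were also lower in paw than in DRG. Over all genes tested these shares were 29% and 40.8%. Runx1 stood at 81.2 ± 6.70 CPM in DRG, 29.1 ± 1.31 CPM in paw and 2.28 ± 0.830 CPM in spinal cord.

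Other family genes showed which relatives were read beside the members. In DRG Mrgpra2b had 38, 28 and 24 reads and Mrgpra2a 9, 10 and 9, but 85.3% and 87.5% of their windows occur in another gene, so their counts are uncertain. Mrgpra4, which shares the run printed above with Mrgpra3, had 0, 0 and 3 reads in DRG and 3 over paw. Paw held relatives outside the set. Mrgprb1 had 74, 60 and 74 reads there, Mrgprb2, the mast cell receptor gene, 40, 34 and 38, and Mrgprx2, also known as Mrgprb10, 20, 28 and 41. The paw level of Mrgprb1 exceeded that in DRG by 2.64 ± 0.30 in log2 (adjusted p = 6.83e-06) and that of Mrgprb2 by 3.52 ± 0.37 (adjusted p = 1.27e-05). Mas1 had 14, 14 and 11 reads in DRG and 1 to 2 in each spinal cord library. Of these 14 other genes 6 were tested, and 5 were higher in DRG than in spinal cord, against 29% of all genes tested. In paw 3 of the 6 were higher than in DRG and 2 lower, against 39.7% and 40.8% of all genes tested. Mrgprh had 4 to 13 reads in each DRG library, 1 to 6 in cord and 10 to 17 in paw. Mrgpra1 and Mrgpra9 had 6 and 8 reads over DRG, and Mrgprb8 and Mrgprg 1 read each in all. Mrgpra6 and Mrgprb3 had 0 reads in all 9 libraries.

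**Figure D5:**
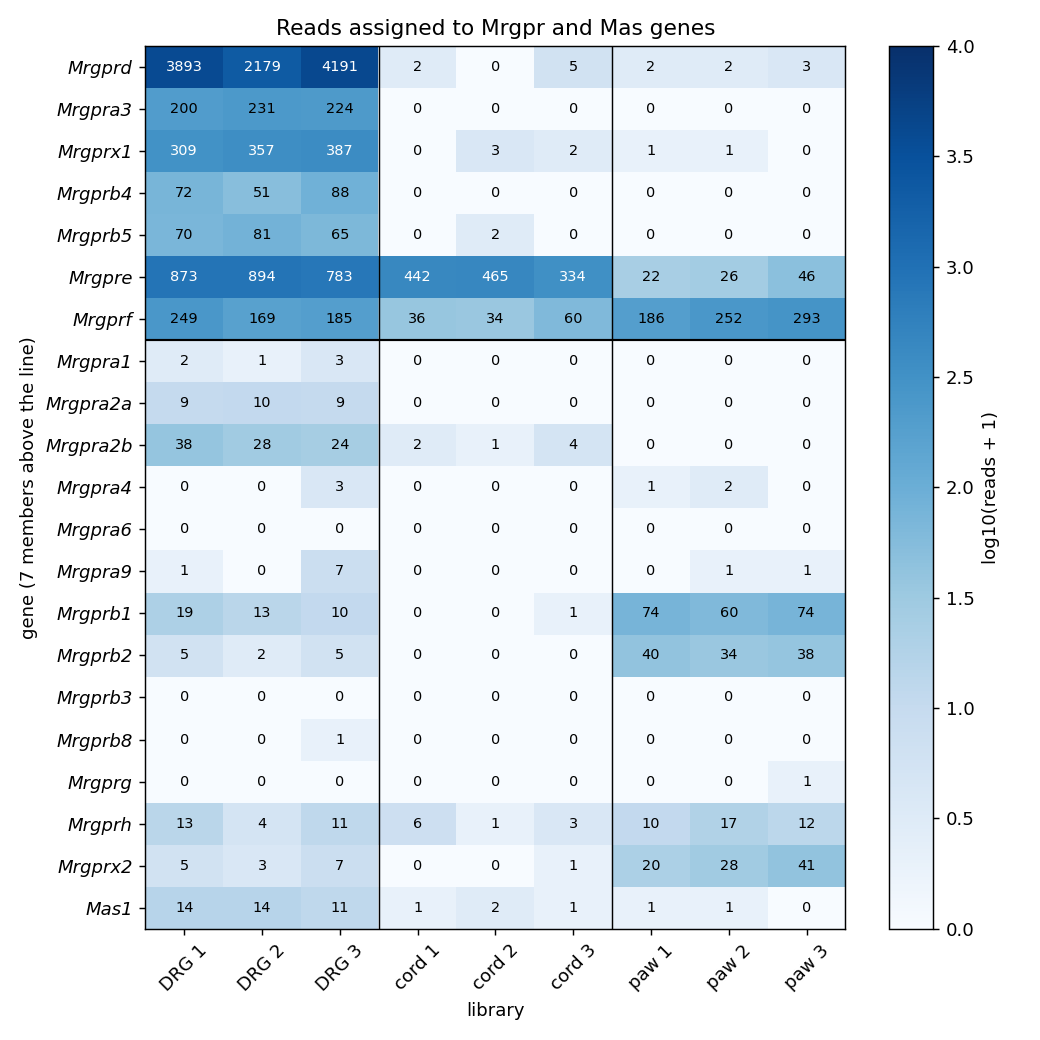
Each cell gives the reads assigned to a gene (rows, members above the line) in a library (columns), shaded by log10 of reads plus 1. The members from Mrgprd to Mrgprb5 fill the DRG columns, Mrgpre fills DRG and cord, and Mrgprb1, Mrgprb2 and Mrgprx2 fill the paw columns.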

How the data were processed

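For each of the 9 libraries the authors deposited a table of unnormalized counts, in whole reads by gene symbol. The libraries were made from oligo-dT selected RNA with a stranded kit and read as single 50-base reads, per the labels' protocols. The tools named are bcl2fastq, TopHat2 and HTSeq and the build is mm9, per the submitters' processing notes. Neither tool versions, nor the gene models, nor whether counting used strand, was given in the sources used here. The 5 summary rows, 42.9 to 59.3% of a file, stayed out of library sizes and tests, and 31.9 to 47.6% were alignments to several places. Floors and counting intervals take in counting error alone, because reads carry no molecular identifiers.

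Counts of all 9 libraries were fitted in edgeR 4.0.16 under R 4.3.3 with tissue as the factor (6 residual degrees of freedom), after filterByExpr by tissue, TMM scaling, glmQLFit (robust) and glmQLFTest. P-values were Benjamini-Hochberg adjusted over 16091 genes, and a gene was called at an adjusted p under 0.05. Standard errors come from the log2 fold change and its F. CPM used TMM library sizes. Folds against 0 reads are bounds against 3 reads over a tissue, and ratios against 1 to 3 reads have 95% Clopper-Pearson intervals. No 2 libraries of a tissue were repeats of each other (chi-square per degree of freedom 7.30 to 36.7).

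The members and the 17 other gene lists (163 entries with the members, 157 in the files) were chosen with earlier results of these data known. Named are all members, the other detected family genes by reads, up to 4 genes per list by expression and call, and the 3 genes nearest to each member. Some genes that this rule takes are not reported. Genes outside this rule, such as Scn11a, Trpm8, Il31ra, Cysltr2, Nppb and Trpa1, were chosen after their values were seen. On simulated counts, 76% of 2-fold and 96% of 4-fold differences were recovered for DRG against spinal cord on 15856 genes, and 13 of 185 calls were false. The shares on 15248 genes for paw against DRG were 76% and 96%, with 14 of 186, and for paw against spinal cord (15249 genes) 69% and 97%, with 15 of 181. In each simulation 100 genes were changed per fold size and all others kept equal between the tissues compared, unlike in these data. Genes with very few expected reads were not changed, so these shares do not cover such genes. DESeq2 1.42.0, limma 3.58.1 (voom), other scalings, no low-count filter, 2-tissue fits, a replicate block and fits without each library served as alternatives.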

Additional observations from a re-analysis of the deposited data

How the results depend on the processing

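Of the members' log2 differences under the alternatives, 367 kept their side of the threshold, 5 lost the call, 1 gained it and 0 changed sign among called values. Differences not called in either fit could change sign and still count as kept. Mrgprd in paw against spinal cord, for example, went from 0.22 to -0.38 without spinal cord sample 2. Most of the differences counted belong to Mrgprd, Mrgpra3, Mrgprx1, Mrgprb4 and Mrgprb5. Their calls against DRG follow from the read filter, and their differences between paw and spinal cord rest on very few reads. Unchanged outcomes of these genes are thus not support for a pattern. The 5 losses are all among the 18 alternatives for Mrgprf between paw and DRG. The number of members higher in paw than in DRG fell from 1 to 0 with them, ranging from 0 to 1 when each library was left out, and was 0 with DRG samples 1 and 2 left out. With spinal cord samples 1 and 3 left out, 2 members instead of 1 were lower in paw than in spinal cord, since Mrgprb5 was then called (log2 difference -3.93, edgeR adjusted p = 0.0455), resting on 2 reads in 1 library. Both of these settings, and these libraries, were chosen after seeing the data, and the cause was not tested. DESeq2, limma-voom, the other scalings and the fit without a filter changed no call of a member, nor did the 2-tissue fits, which for paw against spinal cord gave values for Mrgpre and Mrgprf only.

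The replicate numbers are not stated to mark a shared mouse. Of 9 same-numbered pairs 2 had deviations correlated over 0.1 (-0.13 to 0.27), and 3 of 18 checks found a sample best matched with its own number, so the numbers were not taken as a pairing. A fit with the replicate number as a block changed no call: 7 members were higher in DRG than in spinal cord, and Mrgprf in paw against DRG had a log2 difference of 0.61 (adjusted p = 0.0377). Depth limits what can be said of Mrgprd, Mrgpra3, Mrgprx1, Mrgprb4 and Mrgprb5 outside DRG, where they had 0 to 7 reads per tissue, and a setting that leaves 1 library in a tissue assumes that it varies like the others.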
